A study of Mus musculus with 10 samples.

Results

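The integrated stress response and mitokine genes Atf4, Ddit3, Trib3, Chac1, Asns, Psat1, Phgdh, Mthfd2, Fgf21 and Gdf15 were examined in calf muscle of desmin knock-out mice. The labels name the gastrocnemius, whereas the paper also speaks of the plantaris, so that the tissue may have held both muscles. These 10 genes were taken by symbol from a deposited table of 54232 genes, and all 10 were found. RNA sequencing libraries came from 5 homozygous knock-out mice (Des -/-) and 5 wild-type mice (Des wt/wt), and the submitters give both genotypes the strain name B6J.129Sv-Destm1Cba/Cscl. The methods give an age of 3 months and littermates as controls, whereas sex and litter of the single mice are not given in the sources used here. The deletion is carried in the germline, so muscle fibers and every other cell type of the tissue lack an intact gene. The methods speak of RNA of 5 muscles per genotype being pooled, but the values are given mouse by mouse, and each mouse counted as 1 replicate.

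In the integrated stress response, kinases that sense stress phosphorylate the translation factor eIF2α. Most protein synthesis then slows, while the mRNA of the transcription factor ATF4 is translated more, so that the pathway is switched on to a large part without a change in Atf4 mRNA. ATF4 activates genes for amino acid synthesis, amino acid import and tRNA charging, and, with its target CHOP (the product of Ddit3), genes of the terminal stress response. Muscle fibers under mitochondrial stress are known to secrete the ATF4 targets FGF21 and GDF15, which act on other organs and are therefore called mitokines.

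ATF4 binds DNA together with C/EBP proteins at a composite element, which was searched as TGATGNAA on both strands in RefSeq promoter windows of GRCm38.p6 (250 bases before to 50 after each start site). All 10 genes had at least 1 window, 12 windows in all. The element was found in 4 of these 12 windows, those of Asns, Chac1, Fgf21 and Trib3, and in 3.97% of the 32851 windows of all genes. A cyclic AMP response element, TGACGTCA, which is its own reverse complement, was found in none of the 12 and in 1.79% of all windows. No stretch can match both motifs at once. The 4 stretches are shown because they hold the same kind of element although these genes did not differ in the same direction between the genotypes. Each is written 5′ to 3′ along the gene, and capitals mark the element.

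Asns, chr6:7693214-7693243, reverse strand: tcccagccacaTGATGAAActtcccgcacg
Trib3, chr2:152344028-152344057, reverse strand: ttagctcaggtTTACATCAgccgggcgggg
Chac1, chr2:119350992-119351228, forward strand: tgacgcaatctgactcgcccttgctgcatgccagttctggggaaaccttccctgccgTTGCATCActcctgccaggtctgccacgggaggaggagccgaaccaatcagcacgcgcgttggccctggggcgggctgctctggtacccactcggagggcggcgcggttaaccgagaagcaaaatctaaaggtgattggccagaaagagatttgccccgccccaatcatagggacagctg
Fgf21, chr7:45615491-45615740, reverse strand: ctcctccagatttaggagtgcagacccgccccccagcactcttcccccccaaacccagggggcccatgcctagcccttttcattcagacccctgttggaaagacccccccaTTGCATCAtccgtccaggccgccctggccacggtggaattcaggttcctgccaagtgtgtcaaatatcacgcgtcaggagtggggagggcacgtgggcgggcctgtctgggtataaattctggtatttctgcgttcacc

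In Asns the element lies 16 to 23 bases before the RefSeq start and inside an exon of the GENCODE gene, which begins further upstream. In Trib3 it lies 7 to 14 bases before the start of the GENCODE gene, which is after the RefSeq start. In Chac1 and Fgf21 it lies before both starts, 186 to 193 and 132 to 139 bases upstream of the RefSeq start. A match of these letters is a description of the sequence, and binding was not measured.

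The values used are the regularized log (rlog) values that the authors deposited. This log2 scale corrects for library size and pulls values of a gene together, above all at low read numbers, so that differences come out smaller than fold changes of read counts. A gene entered the limma test if it averaged log2(10) or more in all mice, and p-values were adjusted over all 14289 tested genes. Of these genes, 7.7% were higher and 5.99% were lower in knock-out muscle at an adjusted p under 0.05. Des itself had rlog values of 11.76 to 11.89 in the 5 knock-out mice and 16.10 to 17.74 in the 5 wild-type mice, matching the labels (log2 difference -4.73, SE as the standard error 0.25, limma adjusted p = 1.54e-07). One library, wild-type mouse 3, stood apart: its mean correlation with its own genotype was 0.982 and that of the other 9 mice at least 0.989. Its summed expression was also 1.48 times the median of all mice, and differences that changed by over 1.5 times without it are given both ways.

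Marker genes showed skeletal muscle in all mice, with a summed level of 8 fiber genes of 21.84 to 22.04 in knock-out and 22.09 to 23.02 in wild-type mice (log2 scale). Of these 8 genes, 2, Actn3 and Myh4, were lower in knock-out muscle, and 0 were higher. Myh1 (log2 difference 0.58) and Mb (0.32) had the higher mean in knock-out muscle but did not pass (limma adjusted p = 0.132 and 0.15). Macrophage markers overlapped between the genotypes (0 of 8 passed the limma test, adjusted or unadjusted p, summed level 10.96 to 11.39 and 10.57 to 11.28). Of 6 fibroblast markers, 3 were higher in knock-out muscle (summed level 13.59 to 14.18 and 13.15 to 14.12). In contrast, 4 of 5 endothelial markers (11.49 to 11.94 and 11.99 to 12.35) and 2 of 5 erythroid markers (11.49 to 12.09 and 12.00 to 13.37) were lower. Of all tested genes, 7.7% were higher and 5.99% lower. Wild-type mouse 3 had the highest value of each erythroid marker. Adipocyte markers (10.03 to 11.33 and 10.05 to 11.23) and Schwann cell markers (10.86 to 11.33 and 10.57 to 11.38) had no gene that passed, adjusted or unadjusted. None of these markers was at 0 in all mice. The part of cell composition in the results below was not tested, and in whole muscle a change in the number of cells and a change in RNA per cell cannot be told apart.

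Of the 10 genes, 9 reached the expression limit, and Fgf21 did not. Asns and Psat1 rose and Chac1 fell in knock-out muscle, while the other 6 tested genes did not pass. The median log2 difference of the 9 genes was 0.41, compared with -0.003 for all tested genes. At an unadjusted p under 0.05, 6 of the 9 genes differed, compared with 27.6% of all tested genes. In 7 of the 9 genes the knock-out mean was the higher one, the exceptions being Atf4 and Chac1. These summaries are descriptions, since Gdf15 reached the limit only through its knock-out values. Without Gdf15 the median was 0.295, 5 of 8 genes differed at an unadjusted p under 0.05, and 6 of 8 had the higher mean in knock-out muscle. For 3 of the 9 (Ddit3, Asns and Psat1) the 5 knock-out values all lay above the 5 wild-type values, as was the case for 7.45% of all tested genes. The reverse was found for none of the 9 and for 6.97% of all tested genes.

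**Figure D1:**
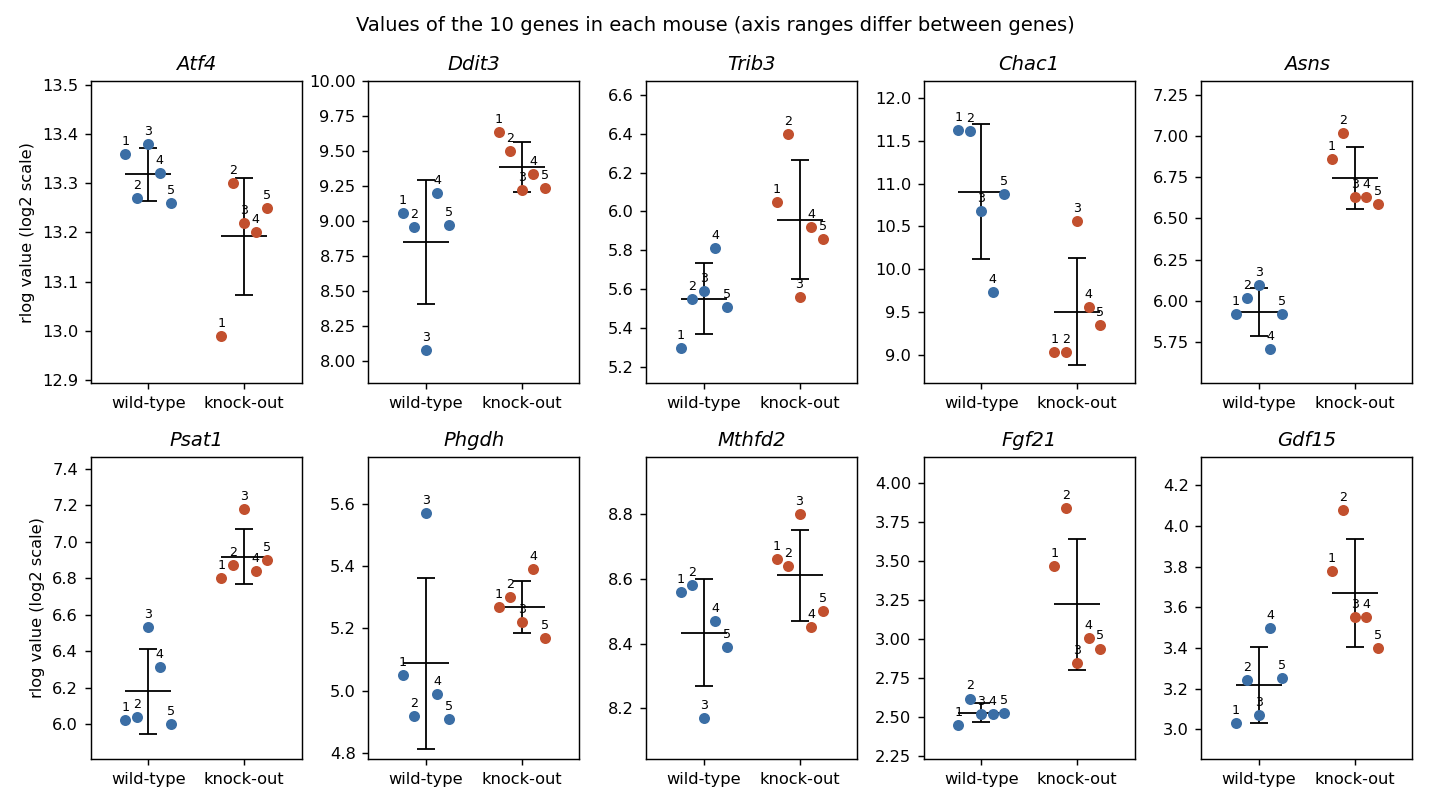
Each panel shows 1 gene, with the rlog value (log2 scale) of each mouse on the vertical axis, the mouse number beside each point, and the mean with its SD as a line with bars (n = 5 per genotype). Asns, Psat1, Fgf21 and, narrowly, Ddit3 are separated between the genotypes, and 4 of 5 Chac1 values of knock-out mice lie under the lowest one of wild-type mice. The axis ranges differ between genes, with that of Atf4 covering less than 1 unit.

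Atf4, the transcription factor of the pathway, lies on chromosome 15 from 80255184 to 80257541 (GRCm38, as all positions of genes here). Its rlog values were 12.99, 13.30, 13.22, 13.20 and 13.25 in knock-out mice 1 to 5 and 13.36, 13.27, 13.38, 13.32 and 13.26 in wild-type mice 1 to 5. Of the knock-out values, 4 of 5 were under the lowest wild-type value, and knock-out mouse 2 lay within the wild-type range. The log2 difference was -0.13 (SE 0.09, limma adjusted p = 0.372). Atf4 did not pass under any of 18 alternative settings of the analysis, over which the difference ranged from -0.17 to -0.01.

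Ddit3 encodes CHOP, a C/EBP-related factor that ATF4 induces. Knock-out mice had rlog values of 9.64, 9.50, 9.22, 9.34 and 9.24, and wild-type mice had 9.06, 8.96, 8.08, 9.20 and 8.97. The groups did not overlap, but the lowest knock-out and the highest wild-type value were nearly equal, and wild-type mouse 3 was far below all others. With a log2 difference of 0.53 (SE 0.18), Ddit3 did not pass over all genes (limma adjusted p = 0.0698). Without wild-type mouse 3 the difference was smaller, 0.34, and passed (limma adjusted p = 0.031). It passed in 5 of 18 alternatives, and with the immediate-early covariate described below for Chac1 the difference was 0.31 (limma adjusted p = 0.705). The Ddit3 locus (chromosome 10, 127290774 to 127296288) shares 68 bases with Mars on the opposite strand, which had a log2 difference of -0.43. The library kit keeps the strand, but whether the counting used it is not given in the sources used here. A second annotated gene of the same symbol is listed at 0 in all mice. Its locus overlaps with that of the first by 2925 bases on the same strand, introns included. Reads that match both genes may have been dropped, which was not tested.

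Trib3 (chromosome 2, 152337422 to 152344032) encodes a pseudokinase that is induced by ATF4 and CHOP and restrains both ATF4 and Akt signaling. Its rlog values were 6.05, 6.40, 5.56, 5.92 and 5.86 in knock-out mice and 5.30, 5.55, 5.59, 5.81 and 5.51 in wild-type mice. All knock-out mice but mouse 3 were above the highest wild-type mouse. The log2 difference of 0.41 (SE 0.15) did not pass (limma adjusted p = 0.0989). Without knock-out mouse 3 it was 0.51 and passed (limma adjusted p = 0.0422), whereas without knock-out mouse 2 it was 0.30 and did not (limma adjusted p = 0.223). Trib3 passed in 2 of 18 alternatives.

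Chac1, an enzyme that degrades glutathione and is a target of ATF4 and CHOP, lies on chromosome 2 from 119351229 to 119354381 and had the largest difference of the 10 genes. The rlog values were 9.03, 9.03, 10.56, 9.56 and 9.35 in knock-out mice and 11.63, 11.62, 10.68, 9.73 and 10.88 in wild-type mice. Knock-out mice were lower in general, but knock-out mouse 3 and wild-type mouse 4 crossed, so the groups overlapped. The mean fell from 10.91 ± 0.79 to 9.50 ± 0.63 (SD, n = 5 each), a log2 difference of -1.40 (SE 0.36, limma adjusted p = 0.0181) or 2.65-fold on the rlog scale. This is the direction opposite to that of Asns and Psat1. The call was lost without knock-out mouse 1 (log2 difference -1.29, adjusted p = 0.053) and without knock-out mouse 2 (log2 difference -1.29, adjusted p = 0.0554), and with no expression limit (adjusted p = 0.0691, all limma). The highest Chac1 values, in wild-type mice 1 and 2, came with the highest wild-type values of Atf3 (12.44 and 11.66, while wild-type mice 3, 4 and 5 had 8.92 to 9.44) and of 9 immediate-early genes (mean rlog 8.55 and 8.01, while the remaining wild-type mice had 7.36 to 7.47 and knock-out mice 8.36 to 8.72). The part of these genes in the Chac1 result was not tested. As a description only, the mean of these immediate-early genes, chosen after the values were seen, was added as a covariate. The log2 difference of Chac1 was then -2.08 (limma adjusted p = 0.0193). This mean itself differed between the genotypes, so the fit cannot tell the part of these genes from that of the genotype.

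Asns encodes asparagine synthetase, a classical target of ATF4 when amino acids are scarce, and lies on chromosome 6 from 7675169 to 7693254. Knock-out mice had rlog values of 6.86, 7.02, 6.63, 6.63 and 6.59, and wild-type mice had 5.92, 6.02, 6.10, 5.71 and 5.92. Each knock-out mouse was well above each wild-type mouse, and both groups were narrow. Asns rose from 5.94 ± 0.15 to 6.75 ± 0.19 (SD, n = 5 each), which is a log2 difference of 0.81 (SE 0.12, limma adjusted p = 5.14e-04) or 1.75-fold on the rlog scale. It passed under all 18 alternatives, with differences from 0.72 to 0.85 and adjusted p from 3.7e-05 to 0.0321.

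Psat1 encodes phosphoserine aminotransferase, the middle enzyme of serine synthesis, and lies on chromosome 19 from 15904678 to 15947337. The rlog values of 6.80, 6.87, 7.18, 6.84 and 6.90 in knock-out mice were all above those in wild-type mice, which were 6.02, 6.04, 6.53, 6.31 and 6.0. Wild-type mouse 3 came closest to the knock-out mice. Psat1 rose from 6.18 ± 0.24 to 6.92 ± 0.15 (SD, n = 5 each), with a log2 difference of 0.74 (SE 0.13, limma adjusted p = 0.00182) or 1.67-fold on the rlog scale. This gene also passed under all 18 alternatives, with differences from 0.67 to 0.89 and adjusted p from 3.13e-06 to 0.0143. The locus of a pseudogene on the opposite strand, Gm3329 (wild-type mean 0), overlaps with that of Psat1 by 556 bases, introns included.

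Phgdh (chromosome 3, 98313170 to 98339990) encodes the enzyme before PSAT1 in serine synthesis and did not pass the test. Its rlog values were 5.27, 5.30, 5.22, 5.39 and 5.17 in knock-out mice and 5.05, 4.92, 5.57, 4.99 and 4.91 in wild-type mice. Wild-type mouse 3 had the highest value of all mice, and the other 4 wild-type mice lay under all knock-out mice. The log2 difference was 0.18 (SE 0.14, limma adjusted p = 0.414), and it was 0.30 without wild-type mouse 3 (limma adjusted p = 0.0581). It passed in 1 of 17 alternatives, that with sample weights (log2 difference 0.31, limma adjusted p = 0.024), and was smallest under quantile normalization (log2 difference 0.10, limma adjusted p = 0.697). In the table, 12 other genes hold copies of at least 200 bases that match a Phgdh transcript to at least 95%. None of these reached the expression limit, and their highest rlog value was 0, but reads may have been split or dropped between the copies. Outside overlapping loci, no such copy was found for the other 9 genes.

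Mthfd2 (chromosome 6, 83305691 to 83325908) encodes a mitochondrial enzyme of folate metabolism that is often induced with mitochondrial stress. It had rlog values of 8.66, 8.64, 8.80, 8.45 and 8.50 in knock-out mice and 8.56, 8.58, 8.17, 8.47 and 8.39 in wild-type mice. The groups overlapped widely, and the log2 difference of 0.18 (SE 0.11) did not pass in the main test (limma adjusted p = 0.316) or under any of 18 alternatives. It was 0.11 without wild-type mouse 3, 0.003 with sample weights and 0.006 with the immediate-early covariate. The locus of the little expressed transcript Gm43890 (wild-type mean 0.38) overlaps with that of Mthfd2 by 2799 bases on the same strand, introns included.

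Fgf21 (chromosome 7, 45613886 to 45615490), the first of both mitokines, lay under the expression limit with a mean of 2.87 over all mice, and low rlog values are shrunken most. The values were 3.47, 3.84, 2.85, 3.01 and 2.94 in knock-out mice, whereas wild-type mice had 2.45, 2.62, 2.52, 2.52 and 2.53. All knock-out mice were above all wild-type mice, with knock-out mice 1 and 2 highest. In the fit without an expression limit the log2 difference was 0.69 (SE 0.18) and just passed (limma adjusted p = 0.0496), while 3.34% of the 28153 genes in that fit were called higher. This call held under 3 of 16 alternatives and was lost when any 1 mouse other than knock-out mouse 3 was left out, the adjusted p over all alternatives being 0.00467 to 0.442. The difference stayed positive in all 16, from 0.54 to 0.79.

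Gdf15 (chromosome 8, 70629393 to 70632456), the other mitokine, reached the limit with a mean of 3.45 over all mice, although its wild-type mean of 3.22 lay below log2(10), which is 3.32. Knock-out mice had rlog values of 3.78, 4.08, 3.55, 3.55 and 3.40, and wild-type mice had 3.03, 3.24, 3.07, 3.50 and 3.25. Again knock-out mice 1 and 2 were highest, and only knock-out mouse 5 was under the highest wild-type value. The log2 difference of 0.45 (SE 0.14) narrowly missed the threshold (limma adjusted p = 0.0543). It passed in 4 of 17 alternatives. Among these were the fits without wild-type mouse 4 (log2 difference 0.52, adjusted p = 0.0335) and without knock-out mouse 5 (log2 difference 0.52, adjusted p = 0.0471, both limma). Without knock-out mouse 1 the log2 difference was 0.43 and without knock-out mouse 2 it was 0.35, and neither passed (adjusted p = 0.118 and 0.122, limma).

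**Figure D2:**
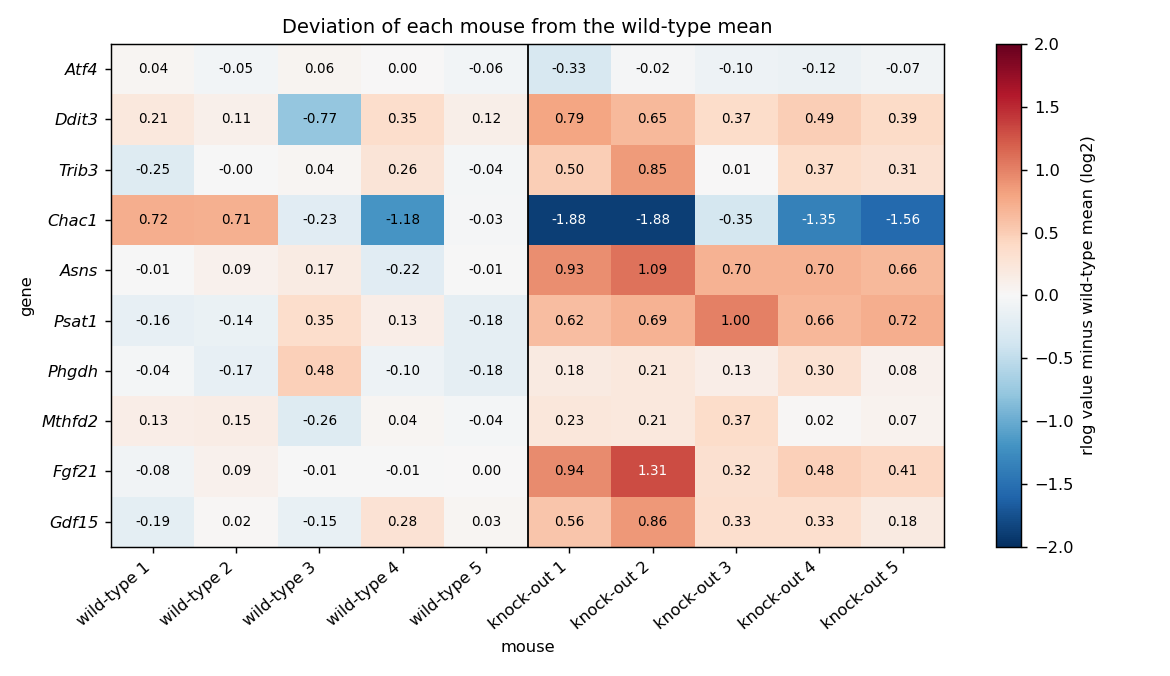
Rows are the 10 genes and columns the 10 mice, and each number and color is the rlog value of a mouse minus the mean of the 5 wild-type mice (log2). Knock-out mice 1 and 2 show the strongest colors in both directions, red in Fgf21, Asns, Gdf15, Trib3 and Ddit3 and blue in Chac1, while the row of Atf4 is nearly white.

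Some of the genes shared an order among the knock-out mice. Mice 1 and 2 held the 2 highest values of all 10 mice in 5 genes, Ddit3, Trib3, Asns, Fgf21 and Gdf15, and the 2 lowest values of Chac1. Over all tested genes, which leave out Fgf21, these mice held the 2 highest values in 3.6% and the 2 lowest in 3.08%. Among the genes called higher they held the 2 highest values in 17.2%. Psat1 and Mthfd2 were highest in knock-out mouse 3 instead, the mouse with the lowest knock-out values of Trib3, Fgf21 and Ddit3 and the highest of Chac1. In Atf4, Phgdh, Psat1 and Mthfd2 knock-out mice 1 and 2 did not hold the extreme values together. The order was found by looking at the values and is only described here.

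Per kilobase of annotated exon, wild-type levels (log2 scale) were highest for Atf4 (12.08), followed by Chac1 (10.20), Ddit3 (8.08), Mthfd2 (6.63), Asns (4.48), Trib3 (4.47), Psat1 (4.09) and Phgdh (3.77), and lowest for Fgf21 (2.60) and Gdf15 (2.33). Asns and Trib3 were nearly equal in wild-type muscle. In knock-out muscle the levels of Chac1 (8.79) and Ddit3 (8.61) were closer to each other, and Asns (5.29) lay above Trib3 (4.87) and Psat1 (4.83). These levels use the length of all annotated exons of a gene and, for genes with few reads, a shrunken value.

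The other genes of the pathway were taken as 87 genes in 9 lists, of which 81 were tested. In knock-out muscle 3 of the 81 were higher and 7 lower, together 12.3%, compared with 13.7% of all tested genes. Their median log2 difference was -0.04. The share called is close to that of all genes.

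**Figure D3:**
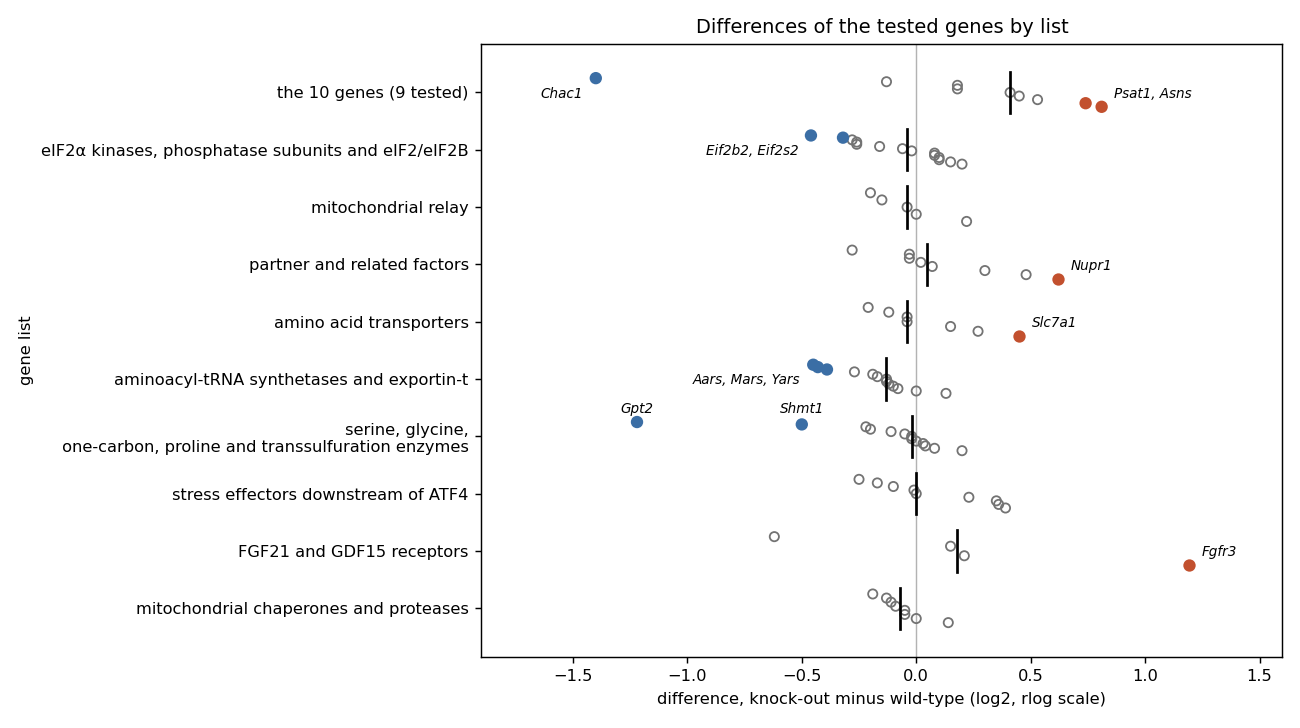
Each circle is a tested gene, placed by its difference between knock-out and wild-type mice (log2, rlog scale) in the list it belongs to, with filled and named circles for genes with an adjusted p under 0.05 and a vertical bar for the median of each list. Medians of the 9 pathway lists lie between -0.13 and 0.18, and that of the 10 genes (9 tested) is 0.41. Without Gdf15, which reached the expression limit only through its knock-out values, the latter is 0.295.

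Upstream of ATF4, 14 genes of the eIF2α kinases, the phosphatase subunits and the eIF2 and eIF2B complexes were tested. None was higher and 2 were lower, together 14.3%, compared with 13.7% of all tested genes. These were Eif2b2 (log2 difference -0.46, adjusted p = 0.0219) and Eif2s2 (log2 difference -0.32, adjusted p = 0.0347, both limma), subunits of eIF2B and eIF2. Both were lower without overlap between the genotypes, as were 6.97% of all tested genes. Eif2b3 was also lower without overlap but did not pass (log2 difference -0.28, limma adjusted p = 0.122). Without wild-type mouse 3 the difference of Eif2b3 was -0.18. None of the 4 kinases passed (limma, 1 at an unadjusted p under 0.05). The log2 difference was -0.26 for the heme-regulated and mitochondrial stress kinase Eif2ak1, 0.10 for the RNA-activated Eif2ak2, 0.15 for the endoplasmic reticulum kinase Eif2ak3 and -0.06 for the amino acid sensor Eif2ak4, with adjusted p from 0.144 to 0.779 (limma). Without wild-type mouse 3 it was -0.17 for Eif2ak1, 0.02 for Eif2ak2 and -0.14 for Eif2ak4. Of the 5 genes that relay mitochondrial stress or regulate that relay, none passed (limma, 0 also at an unadjusted p under 0.05). Dele1, the messenger to the kinase EIF2AK1, had the smallest adjusted p there (log2 difference -0.15, limma adjusted p = 0.251), ahead of Phb2 (-0.20) and Yme1l1 (0.22). The differences of Phb2 and Yme1l1 came from wild-type mouse 3, without which they were 0.00 and 0.02.

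Among 8 partner and related factors, only Nupr1, a small stress-induced chromatin protein, rose (8.62 ± 0.12 against 8.0 ± 0.39, SD, n = 5 each, log2 difference 0.62, limma adjusted p = 0.0222). Without wild-type mouse 3 the log2 difference of Nupr1 was 0.45. The stress factor Atf3 varied so much between wild-type mice, from 8.92 to 12.44, that its log2 difference of 0.07 had a SE of 0.56, and without wild-type mouse 3 it was -0.16. Atf5, a factor of the mitochondrial unfolded protein response, had a log2 difference of 0.02 (SE 0.11), or 0.09 without that mouse. Nfe2l2 (0.30) and Jdp2 (-0.28) did not pass either (adjusted p = 0.195 and 0.199, limma).

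Of 7 tested amino acid transporters, Slc7a1, the carrier of arginine and lysine, rose with a log2 difference of 0.45 (SE 0.13, limma adjusted p = 0.043), although the genotypes overlapped. Slc1a4 (0.27) and Slc3a2 (-0.21) had the next smallest adjusted p, 0.218 and 0.318 (limma), and Slc3a2 had -0.09 without wild-type mouse 3. Slc7a11, the cystine carrier, lay under the expression limit.

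The aminoacyl-tRNA synthetases, many of which ATF4 induces, included no gene that rose. Of 13 tested genes of this list, exportin-t included, 12 had a lower mean in knock-out muscle, as did 7209 of the 14289 tested genes, and 3 passed, all of them lower, compared with 5.99% of all tested genes. These were Yars (log2 difference -0.39, adjusted p = 0.0121), Aars (-0.45, adjusted p = 0.0171) and Mars (-0.43, adjusted p = 0.0307, all limma), and none of the 3 overlapped between the genotypes (6.97% of all tested genes were lower without overlap). Wild-type mouse 3 had the highest value of each, and without it the log2 differences were -0.33, -0.36 and -0.31.

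In the list of serine, glycine, one-carbon, proline and transsulfuration enzymes, 2 of 13 tested genes were lower and none was higher. This was 15.4% of the list, while 13.7% of all tested genes were called in either direction and 5.99% were lower. Gpt2, the mitochondrial alanine aminotransferase, fell from 13.80 ± 0.18 to 12.58 ± 0.24 (SD, n = 5 each), a log2 difference of -1.22 (SE 0.13, limma adjusted p = 2.93e-05). Shmt1, the cytosolic serine hydroxymethyltransferase, had a log2 difference of -0.50 (SE 0.10, limma adjusted p = 0.00507). Neither overlapped between the genotypes (6.97% of all tested genes were lower without overlap). Mthfd1, the cytosolic counterpart in folate metabolism, had -0.22 and did not pass (limma adjusted p = 0.179). Psat1 rose in the same muscles, while Shmt1 and Gpt2 fell.

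None of 9 further effectors of ATF4 passed (limma, 1 at an unadjusted p under 0.05). The apoptosis gene Bbc3 (log2 difference 0.39, adjusted p = 0.165), the secreted Stc2 (0.35, adjusted p = 0.232) and the lipoprotein receptor Vldlr (-0.25, adjusted p = 0.258, all limma) were nearest. None of 8 mitochondrial chaperones and proteases passed either (limma, 0 at an unadjusted p under 0.05), with Htra2 (0.14), Clpp (-0.19) and Lonp1 (-0.11) having the smallest adjusted p. Without wild-type mouse 3 the difference was 0.09 for Htra2 and -0.09 for Clpp.

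The receptors specific to both mitokines were at or near 0. Gfral, the receptor of GDF15, was listed at 0 in all mice, and Klb, the co-receptor that FGF21 requires, had rlog values of 1.46 to 2.15 over both genotypes. Of the FGF receptors, Fgfr3 rose from 7.63 ± 0.54 to 8.82 ± 0.19 (SD, n = 5 each) without overlap, a log2 difference of 1.19 (SE 0.21, limma adjusted p = 0.002) that was 1.00 without wild-type mouse 3. Fgfr1 (0.21, adjusted p = 0.291) and Ret, the partner of GFRAL (-0.62, adjusted p = 0.0615, both limma), did not pass. Ret was nevertheless lower without overlap. Of all tested genes, 7.45% were higher and 6.97% lower without overlap.

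Profiles most like those of the 3 called genes were sought among all other tested genes by the root mean square difference over the 10 mice, after each gene was centered on its mean. For Asns these were Pgm5 (0.107), Ampd3 (0.108) and App (0.115), where the SD of Asns itself was 0.432. For Psat1 they were Art5 (0.0937), Trim47 (0.0986) and 1810058I24Rik (0.103), with an SD of 0.41. No gene came as close to Chac1, for which Dach2 (0.429), BC023105 (0.487) and Neto2 (0.487) were nearest, with an SD of 0.949. The log2 difference was -1.16 for Dach2 and -1.08 for Neto2.

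**Figure D4:**
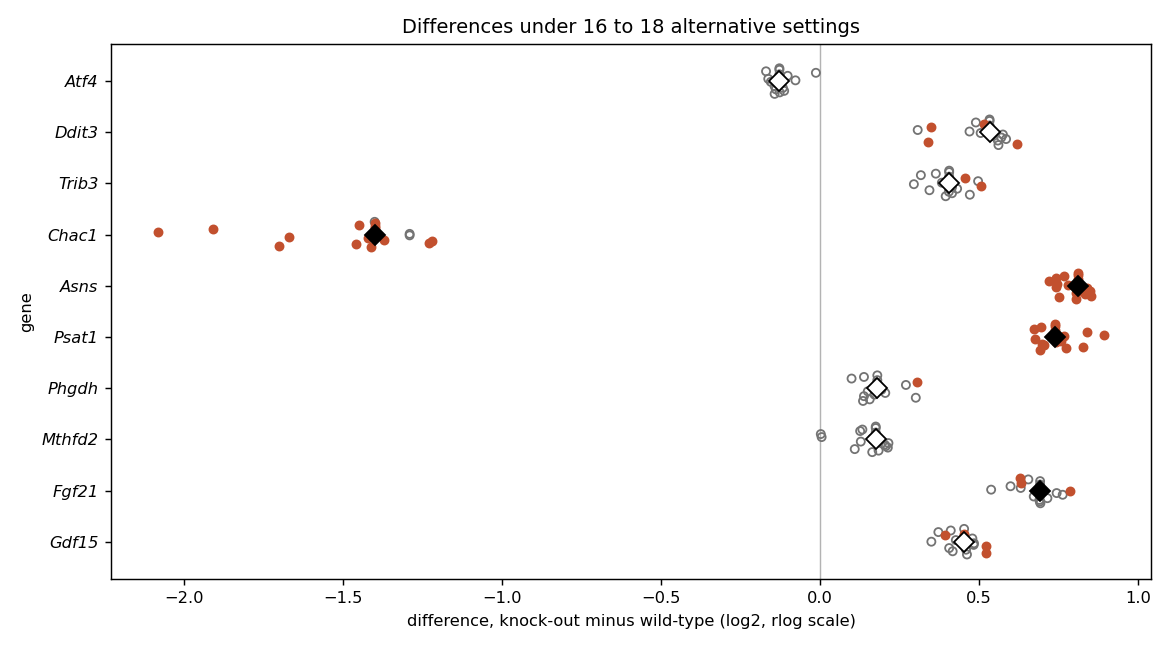
For each gene the diamond gives the difference between knock-out and wild-type mice (log2, rlog scale) as reported and the circles those under 16 to 18 alternative settings, filled where the adjusted p was under 0.05. Asns and Psat1 are filled throughout, Chac1 is filled in 15 of 18, Atf4 and Mthfd2 are open throughout, and no difference changes its direction.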

How the data were processed

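RNA of gastrocnemius muscle, as labelled (gastrocnemius and plantaris in the paper), was sequenced for 5 desmin knock-out and 5 wild-type mice. The submitters' processing notes name cutadapt 2.5, STAR 2.5.4a, Subread 1.6.1 with featureCounts, DESeq2 and GRCm38. The authors deposited rlog values of DESeq2 (log2 scale, 1 column per mouse, all 10 used). Settings of the transformation are not given in the sources used here. No counts were used, so depth and counting error are unknown. Mice are treated as separate replicates, as labelled.

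For genes averaging log2(10) or more, genotypes were compared with limma 3.58.1 (R 4.3.3, eBayes with trend, two-sided, Benjamini-Hochberg adjustment over 14289 genes). The step was tested on simulated data. Symbols and positions came from GENCODE M21 (54079 of 54232 genes), promoters from RefSeq (GRCm38.p6), and copies were sought with BLAST 2.17.0.

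The genes, lists and tests were chosen with earlier results of these data known. Named genes were the 10 genes, Des, the 4 eIF2α kinases, Atf3, Atf5, the 3 genes of smallest adjusted p per pathway list (fewer where not tested), markers at the ends of the range of their list, and the 3 genes nearest in profile to each called gene. Other named genes were chosen after their values were seen. Alternatives were no limit, one of log2(50), sample weights, quantile normalization, centring on the median, 1 prior variance for all genes, the replicate number as a block, each mouse left out, and, added later, an immediate-early covariate.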

Additional observations from a re-analysis of the deposited data

Results flagged for a closer look

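The 10 genes in each genotype gave 20 groups of 5 mice, and in 3 of them a single mouse was separated from the rest by a wide gap (chance alone gives about 1 in 20). Wild-type mouse 3 was low for Ddit3 (8.08) and high for Phgdh (5.57), and knock-out mouse 3 was high for Psat1 (7.18).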

How the results depend on the processing

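No gene of the 10 changed direction in any alternative, and Asns and Psat1 passed in all of them. With sample weights, 6 of the 9 genes that reached the limit were higher. In that fit 7 and 19 pathway genes were higher and lower, and so were 2093 and 2127 of all tested genes. These weights were smallest for wild-type mouse 3 (0.1). With no expression limit, none of the 10 genes was lower (limma, 1 at an unadjusted p under 0.05), and 1 pathway gene was higher and 4 lower. With the immediate-early covariate, whose mean itself differed between the genotypes, no pathway gene was higher (limma, 4 at an unadjusted p under 0.05), 2 were lower, and of all genes 404 were higher and 233 lower. With each mouse left out in turn, 2 to 4 of the 9 genes that reached the limit were higher (4 without wild-type mouse 4). Of these 9 genes, 0 to 1 were lower (0 without knock-out mouse 1 or 2). Of the pathway genes, 1 to 3 were higher (1 without knock-out mouse 2, 3 or 4) and 4 to 7 lower (4 without any 1 knock-out mouse). Of all genes, 560 to 1161 were lower (560 without knock-out mouse 5). The cause of these shifts was not tested. Whether mice with the same number were paired, for example by litter, is not given in the sources used here. Deviations of mice with the same number correlated between -0.219 and 0.0673, and no knock-out mouse correlated best with its own number. With so few mice these correlations cannot settle whether the numbers were paired. With the replicate number as a block, 3 of the 9 genes that reached the limit were higher and 1 was lower. Ddit3 was the gene added (adjusted p = 0.0356 from limma). Depth is unknown, and the shrinkage of rlog limits what low genes such as Fgf21 and Gdf15 can show.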
